A study of Mus musculus with 4 samples.

Results

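The 9 genes described here encode the FOS proteins (Fos, Fosb, Fosl1 and Fosl2), the JUN proteins (Jun, Junb and Jund) and the proteins Batf and Batf3, which together make up most forms of the transcription factor AP-1. They were chosen by symbol, and each matched 1 of the 50600 annotated gene rows through its gene identifier. The study sequenced RNA of primary T cells of the inbred mouse strain C57BL/6NJ in 4 libraries, labelled as biological replicates 1 to 4 of 1 group. The labels leave sex uncollected and age unknown, and the same donor entry stands on all 4 libraries, so the number of animals is not known. A protocol for CD4+ T-cell differentiation is linked to the samples, and the names of the alignments carry the words Th0, activated and 24 h in all 4 cases. With no second condition in the labels, the questions were which AP-1 genes the cells transcribed, in what order and proportion, and how far the replicates differed. Levels are in TPM, the usual length-scaled measure of RNA sequencing: a fragment count divided by exon length and scaled to the same sum in each library. This allows genes of different length to be set side by side.

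AP-1 is a family of dimers of basic leucine zipper (bZIP) proteins. In each partner a basic helix contacts DNA and a zipper of leucines spaced by heptads holds the dimer together. JUN proteins pair with each other or with FOS proteins, whereas FOS proteins need a JUN partner to bind DNA. The BATF proteins carry little beyond the bZIP region, pair with JUN proteins and bind with IRF4 or IRF8 at composite sites. In T cells FOS-JUN dimers join NFAT at the promoters of Il2 and other cytokine genes after the antigen receptor is engaged, and Fos is a classic immediate-early gene whose RNA is made and lost quickly.

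The part of the genes that is common to the family is the stretch coding for the DNA-contacting helix. It is shown for all 9 members because it separates the FOS, JUN and BATF branches in a few codons. The 27 bases of each were read from the GENCODE vM21 transcript with the longest coding sequence, and the capitals mark the codon for cysteine (FOS and JUN) or serine (BATF).
Fos: aataagatggctgcagccaagTGCcgg
Fosb: aacaagctggctgcagctaagTGCagg
Fosl1: aacaagctagcagctgctaagTGCaga
Fosl2: aacaagctagctgcagccaagTGTcgg
Jun: aaccgcattgccgcctccaagTGCcgg
Junb: aacaggctggcggccaccaagTGCcgg
Jund: aaccgcatcgccgcctccaaaTGCcgc
Batf: aatcgcatcgctgcccagaagAGCcga
Batf3: aaccgggttgcagctcagaggAGCcgg
In GRCm38, the assembly also called mm10, the FOS stretches lie at chr12:85475637-85475663 (plus strand) for Fos, chr7:19306595-19306621 (minus strand) for Fosb, chr19:5454458-5454484 (plus strand) for Fosl1 and chr5:32150466-32150492 (plus strand) for Fosl2, each within the third coding-transcript exon (exon 3). The JUN stretches lie at chr4:95050453-95050479 (minus strand) for Jun, chr8:84977581-84977607 (minus strand) for Junb and chr8:70699871-70699897 (plus strand) for Jund. Each of these coding transcripts has 1 exon. Those of the BATF genes lie in exon 2, at chr12:85689310-85689336 (plus strand) for Batf and chr1:191100770-191100796 (plus strand) for Batf3. The capital codon coded for cysteine in all 7 FOS and JUN genes and for serine in Batf and Batf3. Over the 47 codons from this stretch to the last zipper heptad, translated residues were 76.6% to 80.9% identical within the FOS genes (6 pairs), 76.6% to 89.4% within the JUN genes (3 pairs) and 59.6% between Batf and Batf3. Between branches identity was 27.7% to 38.3%. All 5 heptad positions were leucine codons in 8 members, and 4 of 5 were in Batf. The members also differed in coding length: the coding sequences of Batf and Batf3 hold 125 and 118 codons, against 273 (Fosl1) to 380 (Fos) in the other genes. Sequence outside the 47 codons was not compared.

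The upstream sequences of a JUN pair and of the neighbours Fos and Batf are shown because their RNA levels, given below, lay far apart. Each is the 250 bases before the gene's RefSeq start in GRCm38.p6: chr4:95052223-95052472 (minus strand) for Jun, chr8:84978749-84978998 (minus strand) for Junb, chr12:85473640-85473889 (plus strand) for Fos and chr12:85686470-85686719 (plus strand) for Batf. Capitals mark matches on either strand to the AP-1 site TGANTCA, its 8-base variant TGACATCA, the cAMP response element TGACGTCA, the shorter TGACG (which lies within the last of these), the CArG box bound by serum response factor, or TATAAA.
Jun: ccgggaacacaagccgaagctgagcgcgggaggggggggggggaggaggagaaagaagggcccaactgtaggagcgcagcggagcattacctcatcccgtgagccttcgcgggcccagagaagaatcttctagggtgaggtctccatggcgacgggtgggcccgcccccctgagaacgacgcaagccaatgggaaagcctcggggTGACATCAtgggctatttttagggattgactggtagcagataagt
Junb: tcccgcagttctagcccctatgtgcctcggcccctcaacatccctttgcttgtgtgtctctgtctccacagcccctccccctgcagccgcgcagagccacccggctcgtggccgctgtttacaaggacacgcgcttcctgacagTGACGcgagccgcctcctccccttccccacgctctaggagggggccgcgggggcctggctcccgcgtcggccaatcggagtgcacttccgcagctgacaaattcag
Fos: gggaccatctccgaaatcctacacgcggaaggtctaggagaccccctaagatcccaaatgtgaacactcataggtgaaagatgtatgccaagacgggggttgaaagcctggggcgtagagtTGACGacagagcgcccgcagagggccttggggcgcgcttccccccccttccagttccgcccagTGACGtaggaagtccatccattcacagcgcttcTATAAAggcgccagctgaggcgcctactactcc
Batf: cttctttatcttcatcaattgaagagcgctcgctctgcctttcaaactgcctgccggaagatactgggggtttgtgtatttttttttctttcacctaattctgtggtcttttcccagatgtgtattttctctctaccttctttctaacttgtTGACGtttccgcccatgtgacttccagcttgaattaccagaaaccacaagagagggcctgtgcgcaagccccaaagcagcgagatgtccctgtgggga
Jun held TGACATCA 45 bases before its start, a sequence present in 2.93% of the 32851 RefSeq windows of this length. Fos held TGACG at 129 and 66 bases and TATAAA at 33 bases before its start. Junb and Batf held 1 TGACG each, at 106 and 98 bases. TGACG was found in 17.77% of all windows and TATAAA in 12.37%. No member window with a table entry (8 of 9) held TGANTCA (6.75% of all windows), TGACGTCA (1.55%) or a CArG box (1.47%). These are matches of letters in short windows, and no binding was measured. Sequence farther than 250 bases before a start was not searched, so sites there, CArG boxes included, would have been missed.

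The libraries held 60102919, 273136467, 48608896 and 47558517 gene-assigned fragments in replicates 1 to 4, of which 49457, 200350, 34124 and 35701 fell on the 9 genes. The T-cell label fitted its markers: all 6 T-cell genes checked (Cd3e, Cd3d, Cd3g, Trac, Cd4, Cd5) were above 10 TPM in every library, and Cd8a was below 1 TPM. Markers of other cells were near absent. The 6 dendritic-cell genes, of interest because Batf3 is best known from those cells, summed to 0.455 to 0.962 TPM, and Clec9a, Itgax and Siglech had no fragment. The summed levels were 2.08 to 5.10 TPM for 4 B-cell genes, 0.355 to 1.16 TPM for 5 macrophage and monocyte genes, 0.298 to 0.903 TPM for 3 natural killer genes and at most 0.501 TPM for 3 red-cell genes. Epcam led the 4 stromal and epithelial genes, which summed to 1.29 to 1.83 TPM. In bulk RNA, fewer cells with a transcript and less of it per cell cannot be told apart.

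Jund and Junb were the most abundant AP-1 transcripts, and Jun was far below them. Jund, a broadly expressed JUN protein (ENSMUSG00000071076.6, chromosome 8, 70698949 to 70700616), stood at 659.5, 560.1, 516.7 and 574.8 TPM in replicates 1 to 4, with a mean of 578 ± 59.8 (SD, n = 4). Junb, a JUN protein that T cells use with BATF (ENSMUSG00000052837.6, chromosome 8, 84974484 to 84978718), stood at 576.0, 531.5, 514.2 and 532.2 TPM, with a mean of 538.5 ± 26.4. Both genes were highest in replicate 1 and lowest in replicate 3, and their ranges overlapped. Jun, the founding member of the family (ENSMUSG00000052684.4, chromosome 4, 95049034 to 95052222), was at 16.51, 16.64, 19.82 and 17.64 TPM, with a mean of 17.7 ± 1.53. Replicate 3, lowest for Jund and Junb, was highest for Jun. The gap between Junb and Jun was 4.86 ± 0.17 on the log2(TPM + 1) scale, many times the spread between libraries. Among all annotated genes Jund ranked 239 and Junb 263 by mean TPM, and Jun ranked 7054.

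Batf was the third most abundant member and Batf3 the least. Batf (ENSMUSG00000034266.5, chromosome 12, 85686669 to 85709087), which helper T cells need for several effector programmes, was at 155.5, 170.6, 150.9 and 155.1 TPM, with a mean of 158 ± 8.64 (SD, n = 4). Replicate 2 was highest, and the other 3 libraries lay within 5 TPM of each other. Batf3 (ENSMUSG00000026630.9, chromosome 1, 191097847 to 191108945) had 13, 25, 9 and 6 fragments, which corresponded to 0.459, 0.198, 0.399 and 0.268 TPM. The exact 95% Poisson intervals of these values, which cover counting error only, ran from 0.128 to 0.292 TPM in the deepest library and from 0.0983 to 0.583 TPM in replicate 4, and all 4 overlapped. Within a library Batf exceeded Batf3 by 6.90 ± 0.19 on the log2(TPM + 1) scale.

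All FOS transcripts were low beside Junb, Jund and Batf, and Fosl1 was the highest of them. Fosl1, which encodes FRA1 (ENSMUSG00000024912.5, chromosome 19, 5447703 to 5455945), was at 18.92, 20.33, 22.43 and 22.47 TPM, with a mean of 21.04 ± 1.73 (SD, n = 4). Replicates 3 and 4 were nearly equal, and replicate 1 was lowest. Fosl2, which encodes FRA2 (ENSMUSG00000029135.10, chromosome 5, 32135801 to 32157842), was at 10.43, 10, 10.07 and 10.09 TPM, with a mean of 10.2 ± 0.194, the smallest relative spread of the 9 genes (1.91%). Fos (ENSMUSG00000021250.13, chromosome 12, 85473890 to 85477273) was at 9.874, 9.992, 8.364 and 7.699 TPM, with a mean of 8.98 ± 1.13. Replicates 1 and 2 were above replicates 3 and 4 for Fos. Fosb (ENSMUSG00000003545.3, chromosome 7, 19302696 to 19310051), like Fos an immediate-early gene, had 71, 236, 90 and 43 fragments. Its levels were 0.641, 0.478, 1.02 and 0.491 TPM, so that replicate 3 alone reached 1 TPM. The exact Poisson interval of replicate 3 (0.820 to 1.25 TPM) lay above those of the other libraries, the nearest of which was 0.501 to 0.809 TPM in replicate 1.

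**Figure D1:**
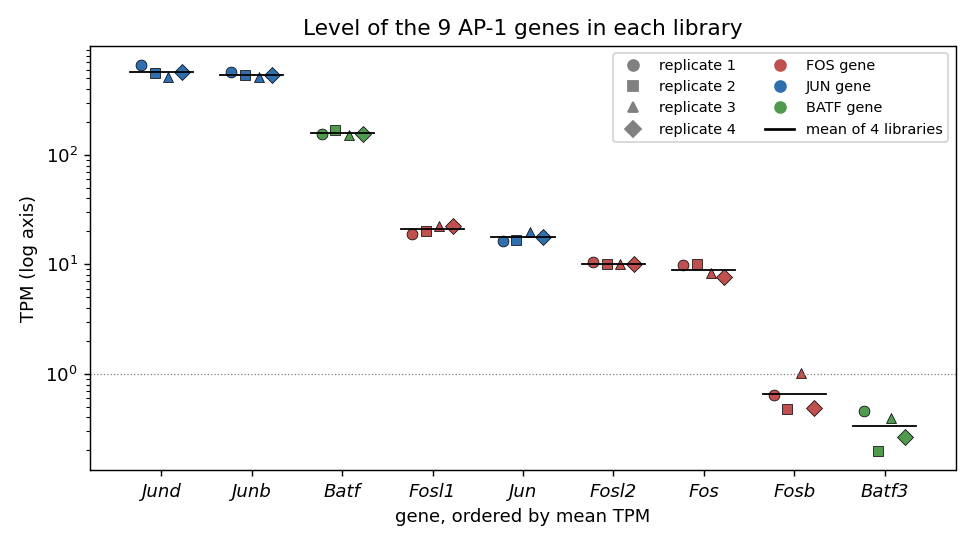
TPM of each of the 9 genes (log axis) in the 4 libraries, with symbols for replicates, colours for the FOS, JUN and BATF genes and a line at the mean of 4 libraries; the dotted line is at 1 TPM. Jund and Junb lie between 514 and 659.5 TPM in every library, Batf near 158, Fosl1, Jun, Fosl2 and Fos between 7.70 and 22.5, and Fosb and Batf3 near or below 1.

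The order of mean levels was Jund, Junb, Batf, Fosl1, Jun, Fosl2, Fos, Fosb and Batf3. All 36 pairs of members differed in the direction of this order in 4 of 4 libraries. The pairs were tested within libraries by exact permutation of signs (two-sided), for which the smallest p from 4 libraries is 0.125. All 36 pairs had that p (0.125 after Benjamini-Hochberg adjustment in the exact test), and none can be called at 0.05 from these libraries. Neighbours in the order were compared with their spread, at the annotated exon lengths used for TPM. The differences in log2(TPM + 1), as mean ± SD over 4 libraries, were several times their spread between Junb and Batf (1.76 ± 0.10), Batf and Fosl1 (2.85 ± 0.16), Jun and Fosl2 (0.74 ± 0.13) and Fos and Fosb (2.60 ± 0.29). They were smaller between Fosl1 and Jun (0.24 ± 0.08) and between Fosb and Batf3 (0.31 ± 0.16). Jund and Junb differed by 0.10 ± 0.08, and by 0.007 in replicate 3. Fosl2 and Fos differed by 0.17 ± 0.16, and by 0.001 in replicate 2. Neither of these last neighbours can be ordered with confidence from 4 libraries.

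The order within the JUN genes also rested on exon length. The exon lengths used for TPM cover all annotated exon bases, including those of retained introns and non-coding transcripts. With the length of the transcript of longest coding sequence (1809 in place of 2301 bases) Junb stood at 684.9 TPM and exceeded Jund. The difference was -0.25 ± 0.08 for Jund minus Junb (mean ± SD on the log2 scale, n = 4). Only the length was changed: the counts still covered all annotated exons, and the library totals were kept. The lengths came from different GENCODE releases, and for Fosl1 the transcript (1864 bases) was longer than the exon length (1707). For Jund, the tables and GENCODE vM21 have 1668 bases in 1 exon, whereas the RefSeq gene spans 2878 bases. The same change moved Fosb to 1.085 TPM and Batf3 to 0.6596 TPM, over 1.5 times their values above, and Fosl2 to 15.03 TPM. The positions from the third to the ninth were as before, but some gaps changed on the log2(TPM + 1) scale. Jun minus Fosl2 fell from 0.74 ± 0.13 to 0.22 ± 0.13, and Fosl1 minus Jun from 0.24 ± 0.08 to 0.12 ± 0.08. Fosl2 minus Fos rose from 0.17 ± 0.16 to 0.55 ± 0.16. The gaps around Jun and Fosl2 thus also rested on the choice of length.

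JUN transcripts made up most of the AP-1 pool, taken as the summed TPM of the 9 genes. The sum was 1448, 1320, 1244 and 1321 TPM in replicates 1 to 4. JUN genes held 86.5%, 84.0%, 84.5% and 85.2% of it, a mean of 85.0% ± 1.09 (SD, n = 4). Jund alone held 43.3% ± 1.73 and Junb 40.4% ± 0.655, while Jun held 1.33% ± 0.192. BATF genes held 10.8%, 12.9%, 12.2% and 11.8%, of which Batf3 was 0.0248% of the pool on average. FOS genes held 2.75%, 3.09%, 3.37% and 3.09%, with a mean of 3.08% ± 0.251. Their summed level, 40.8 ± 0.825 TPM, was the steadiest of the 3 branches. Summed JUN transcripts exceeded summed FOS transcripts 31.4-, 27.2-, 25.1- and 27.6-fold, and summed BATF transcripts 8.03-, 6.49-, 6.94- and 7.24-fold. BATF exceeded FOS 3.88 ± 0.238-fold. Batf is a short transcript, and the order of these branches rested on the division by length: of the fragments on the 9 genes, 6.219% fell on FOS genes and 5.908% on BATF genes. Shares of transcripts say nothing of protein or of the dimers formed.

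**Figure D2:**
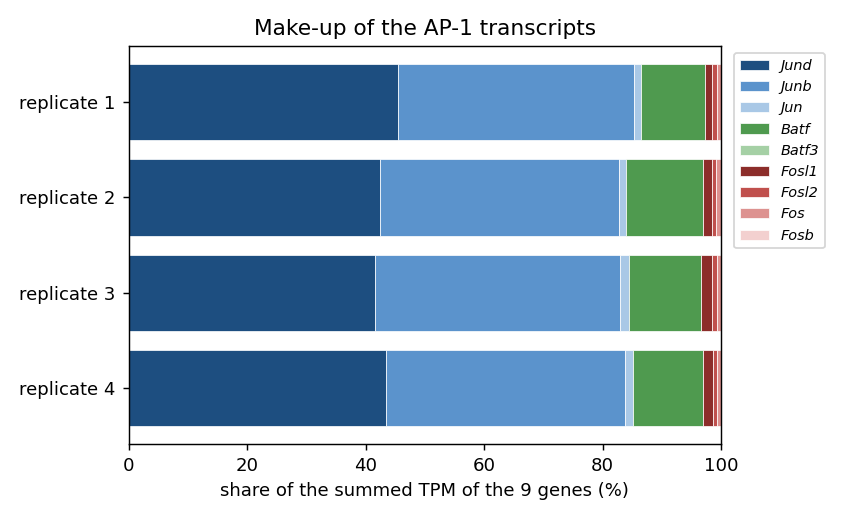
Share of each gene in the summed TPM of the 9 genes (percent, horizontal axis), 1 bar per library. Jund and Junb fill most of each bar, Batf takes 10.7% to 12.9%, and the 4 FOS genes together take 2.75% to 3.37%.

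No member was called as varying between the libraries more than genes of similar abundance. In edgeR's goodness-of-fit test each gene's residual deviance is set against a model with a trended dispersion and no difference between libraries. That dispersion was estimated from the same 4 libraries, so it holds their usual scatter, and only genes beyond it can pass. Of 8 members tested, 0 passed at a Benjamini-Hochberg adjusted p of 0.05. Of all 12712 genes tested 46 passed, or 0.362%, and 25 did without replicate 2, the deepest library. With all 4 libraries none of the 8 was under 0.05 before adjustment. Without replicate 4 Jund was, but it did not pass after adjustment (deviance 7.45 on 2 degrees of freedom, edgeR adjusted p = 0.792). Jund had the largest deviance (6.82 on 3 degrees of freedom, edgeR adjusted p = 0.993), followed by Fosb (4.88, edgeR adjusted p = 1). Fosl2 had the smallest (0.332). Batf3 was left out by the filter on low counts. With a common dispersion for all genes, under which 862 genes passed, Fosb also passed (edgeR adjusted p = 0.0113). The relative spread between libraries was 4.89% to 12.6% for the other 6 genes above 5 TPM and 38.5% for Fosb, against 0.654% to 5.12% and 11.5% from counting alone. For Fosl2 (1.91% against 2.32%) and Batf3 (36% against 31.4%) the spread was close to that of counting.

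**Figure D3:**
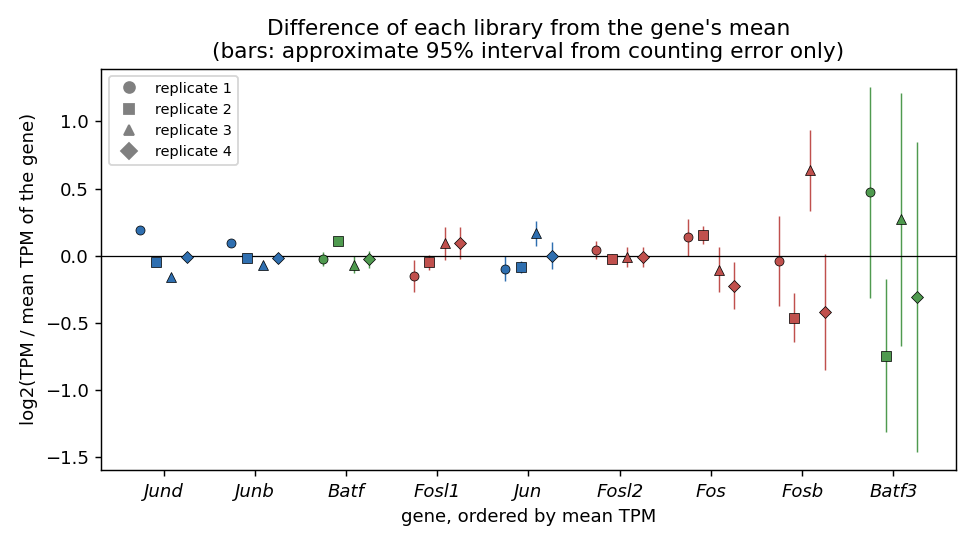
Difference of each library from the gene's mean, as log2(TPM / mean TPM), for the 9 genes in order of level; bars are approximate 95% intervals from counting error only. Jund is highest in replicate 1 (0.191) and lowest in replicate 3 (-0.161), Fosb is highest in replicate 3 (0.634), and the bars of Batf3 are wide.

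Among 53 bZIP genes listed for comparison, Jund, Junb and Batf held ranks 2 to 4 by mean TPM. Atf4, the effector of the integrated stress response, was above them at 767 TPM (lowest library 744.6, highest 777.9). Atf6b, a relative of an unfolded-protein sensor, came just below Batf at 153 TPM (143.6 to 163.7), a range that overlapped that of Batf. Bach2, which represses AP-1 driven genes in T cells, was at 123.5 TPM. Atf1 (119 TPM) and Nfe2l1 (115 TPM) followed. Fosl1 and Jun held ranks 19 and 20, Fosl2 and Fos 24 and 26, and Fosb and Batf3 37 and 40. Batf2, the third BATF gene, and Jdp2, a JUN-dimerization partner that represses AP-1, were below 1 TPM in every library (mean 0.0145 and 0.131 TPM). In every library 28 of the 44 other bZIP genes reached 1 TPM and 18 reached 10 TPM, as did 7 and 6 of the 9 members. Of all 50600 annotated genes 22.7% and 16.0% reached these levels.

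**Figure D4:**
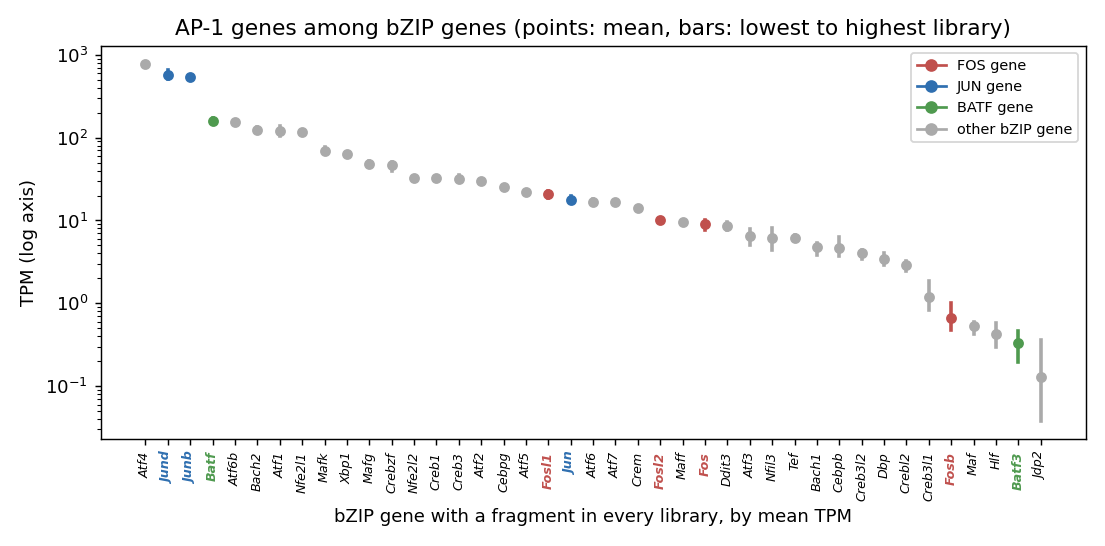
Mean TPM (points, log axis) and range over 4 libraries (bars) of the 41 bZIP genes with a fragment in every library, ordered by mean, with AP-1 genes in colour. Jund, Junb and Batf lie directly below Atf4, while Fosl1, Jun, Fosl2 and Fos lie among the middle ranks.

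Fos and Batf are neighbours on chromosome 12, 209395 bases apart and on the same strand. Jdp2 is the 1 gene annotated between them, so that a gene at 158 TPM and a gene at 8.98 TPM flank a gene with 27 fragments in all 4 libraries together. Junb and Jund lie apart on chromosome 8. Exons of 3 members overlap a gene on the opposite strand, which counting by strand keeps apart. Junb shares 173 exon bases with Prdx2, a peroxiredoxin gene at 170 TPM. Jun shares 232 exon bases with the antisense gene Junos (0.315 TPM), and Jund shares 877 with Gm11175 (1.21 TPM).

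The kinases that act upstream of AP-1 were transcribed in these cells. In all 4 libraries 15 of 17 MAP kinase genes reached 10 TPM, as did 16.0% of all annotated genes. The median of the 17 was 54.8 TPM, against 28.6 TPM for all genes at 1 TPM or more in every library. Map2k3, a kinase of the p38 branch, had 194 ± 8.19 TPM (SD, n = 4). Map3k7 (TAK1) had 108 ± 2.87 and Map2k2 (MEK2) had 105 ± 3.14. The JNK genes, whose products phosphorylate JUN, were lower, with 28.6 ± 0.943 TPM for Mapk9 and 17.0 ± 0.458 for Mapk8. No fragment of the third JNK gene, Mapk10, was counted, and its level was below 0.0192 TPM, the worth of 3 fragments in the library of lowest depth. All 9 genes for factors that act on the Fos and Jun promoters reached 10 TPM in each library. Srf, the serum response factor, had 172 ± 7.62 TPM, and its partner genes Elk3 and Elk4 had 67.4 ± 2.83 and 53.3 ± 3.74. Mef2d had 64.0 ± 4.13, and Elk1 and Mef2a were the lowest at 11.3 ± 0.832 and 10.9 ± 0.402.

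Factors that bind beside AP-1 were transcribed at a range of levels. All 7 reached 10 TPM in each library, as did 16.0% of all annotated genes. The median of the 7 was 122 TPM, against 28.6 TPM for all genes at 1 TPM or more in every library. Irf4, a partner of BATF-JUN dimers, was at 801.2, 788.5, 849.0 and 868.9 TPM. Nfatc1, a partner of FOS-JUN dimers, was at 169.6, 174.7, 199.4 and 183.1 TPM. Both were above Batf in each library, whereas Irf8, Nfatc3 and Nfatc2 were below Batf in each library. Ets1 had 173 ± 2.58, Irf8 122 ± 11.02, Nfatc3 67.0 ± 2.12, Nfatc2 40.5 ± 3.30 and Runx1 19.97 ± 0.502 TPM (SD, n = 4). Of 11 genes listed for the turnover of AP-1 proteins and mRNAs, 9 reached 10 TPM in each library (median 34.1 TPM). The RNA-binding genes Khsrp (407 ± 15.5), Zfp36l1 (279 ± 13.4), Hnrnpd (158 ± 15.8) and Zfp36l2 (120 ± 9.08) were highest. The ubiquitin ligase genes Itch (31.2 ± 1.21), Fbxw7 (24.2 ± 1.04), Det1 (22.8 ± 0.946), Nedd4 (6.03 ± 1.11) and Cop1 (4.35 ± 0.572) were lower.

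Fos stood below most other immediate-early genes. Outside the family 12 of 15 such genes reached 10 TPM in each library, as did 16.0% of all annotated genes. The median of the 15 was 92.7 TPM, against 8.98 TPM for Fos and 0.657 TPM for Fosb. Myc was at 665 ± 20.8, Ier2 at 456 ± 11.96, Dusp2 at 435.5 ± 7.21 and Nr4a1 at 421 ± 27.7 TPM (SD, n = 4). Egr1, which shares serum-response control with Fos, was at 61.5, 64.7, 74.1 and 68.2 TPM, above Fos in every library. Nr4a2 (7.54 ± 0.644), Ier3 (6.49 ± 0.955) and Atf3 (6.42 ± 1.22) were the 3 genes of this list below 10 TPM.

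Genes listed as AP-1 targets, not all of them typical of T cells, spread over a wide range of levels. Of 28 genes 16 reached 10 TPM in each library, as did 16.0% of all annotated genes. In each library 9 stayed below 1 TPM, and the median of the 28 was 47.3 TPM. Ccl4, a chemokine gene, had 1417 ± 82.0 TPM (SD, n = 4), Il2, the T-cell growth factor, 1276 ± 71.8, and Odc1, the entry enzyme of polyamine synthesis, 1189 ± 7.65. Ccl3 followed with 468 ± 36.8. Ctla4, a gene with BATF-IRF4 sites, was at 234.5 ± 21.9 TPM, while Il10, Il21 and Il17a, effector cytokine genes that also need BATF, had 10, 22 and 2 fragments in all 4 libraries together. Prdm1 had 89 fragments, Il4 39, Plau 121, Timp1 61, Ccnd1 9 and Mmp9 2. Ifng ranged from 0.110 to 1.48 TPM, highest in replicate 1. No comparison with cells lacking AP-1 was part of the study, and a level here shows no regulation by any member.

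**Figure D5:**
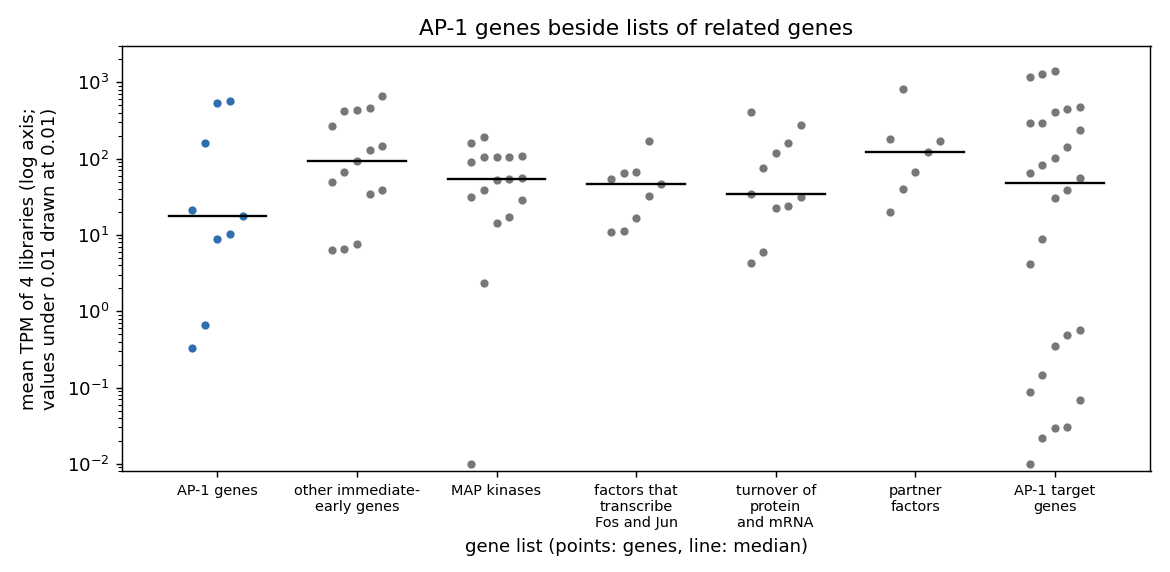
Mean TPM over 4 libraries (log axis) of the 9 AP-1 genes and of 6 lists of related genes, with a line at each list's median; Mapk10, with no fragment, is drawn at the foot of the axis. The AP-1 genes run from 0.331 to 578 TPM with a median of 17.7, and the AP-1 target genes spread from 0.0101 to 1417 TPM.

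For the highest member of each branch, the genes with the most similar values in the 4 libraries were found by the root mean square difference in log2(TPM + 1) over all 50375 other genes with a symbol. This measure joins genes of equal level and says nothing of shared control. For Jund they were Ndfip1, an adaptor of ubiquitin ligases (0.0638), Rap1b, a small GTPase (0.0670), and Etf1, the translation release factor (0.0732). Ndfip1 had 701.8, 578.5, 514.1 and 606.6 TPM, with the same order of libraries as Jund. For Batf they were Ppie (0.0387), Calu (0.0422) and Asf1b, a histone chaperone gene (0.0475). For Fosl1 they were Mib2 (0.0346), Sema4b (0.0429) and Zswim1 (0.0452).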

How the data were processed

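RNA of 4 libraries of mouse T cells was counted per gene. The deposited values are raw counts of fragments per gene. Per the file headers they were made with featureCounts (1.4.6-p4) from exons of GENCODE vM13, for fragments whose 2 ends both aligned, with strand setting 2 (reverse) and no option for multiply aligned or ambiguous fragments. Alignment names refer to STAR, but its version is not given in the sources used here. The build is mm10 per the labels, which title the assay total RNA-seq but link a library protocol for poly(A)+ RNA.

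TPM was computed from the counts and the exon length in the files. Symbols came from GENCODE vM21, by identifier without version (50376 of 50600 matched), coding sequences from its transcripts and upstream sequences from RefSeq (GRCm38.p6). Variation was tested over 12712 genes past edgeR's filterByExpr (minimum count 10) with edgeR 4.0.16 (R 4.3.3): TMM factors, an intercept-only model, trended dispersion and residual deviance against chi-square, checked on simulated data. Pairs were tested by an exact sign-flip permutation test on log2(TPM + 1). Python 3.11.15, scipy 1.17.1 and Biopython 1.88 did the rest. No label ties the libraries to separate animals, so p-values reflect only how these libraries scatter, and part or all of that scatter may be technical. Each pair of libraries differed by more than sampling noise (chi-square over its degrees of freedom, 9.14 to 29.1). Intervals and the limit of 3 fragments cover counting error only.

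The members, gene lists and tests were chosen with earlier results of these data known. Named genes are the members, the highest genes of each list, list genes below 1 TPM that a count names, the 3 nearest genes per branch, and genes sharing exons with a member. Mapk8, Mapk9, Egr1, Nr4a2, Ier3, Atf3, Nfe2l1, Cop1, Nedd4, Ctla4 and Ifng fall outside this rule and were named after their values were seen. Alternatives left out each replicate, or changed the total, the scaling, the pseudocount, the filter, the normalization (RLE), the dispersion or the exon length. The value of 1 listed gene is not reported here.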

Additional observations from a re-analysis of the deposited data

Results flagged for a closer look

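Among 32 sets of 4 library values (levels, shares and neighbour differences of the members, list sums and depth), in 1 a library stood too far from its nearest neighbour by Dixon's test for 4 values, and chance alone gives about 1 in 20. It was the depth of replicate 2, with 273136467 fragments against 47558517 to 60102919 in the other libraries. No level, share or neighbour difference of the 9 genes was among them.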

How the results depend on the processing

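No paired analysis was possible because the labels hold 1 group. The change to the length of the coding transcript was chosen after the data were seen. It reversed Jund against Junb (-0.2494 on the log2 scale) and moved the mean TPM of Junb to 684.9, Fosl2 to 15.03, Fosl1 to 19.27, Fosb to 1.085 and Batf3 to 0.6596, the JUN share to 86.21% and the BATF share to 10.72%. As shares of fragments, not divided by length, FOS genes held 6.219%, JUN genes 87.87% and BATF genes 5.908%. Leaving mitochondrial and short genes out of the total put Fosl2 at 10.49 TPM. TMM scaling moved no level by over 1 SD, and neither a pseudocount of 0.1 nor leaving out any replicate turned a pair. The 46 genes that varied became 862 with a common dispersion, of which 1 was a member (Fosb), and between 25 (without replicate 2) and 40 when libraries were left out singly; the cause of that drop was not tested. The lists' counts at 10 TPM stayed within 1.5 times with each replicate left out. Depth limits Batf3, whose spread is close to counting error, and the test of pairs cannot pass with 4 libraries.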
